A study of Mus musculus with 18 samples.

Results

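The genes described here are those of the extracellular matrix and its integrin receptors, taken by name from the deposited expression table of mouse embryonic stem cells (ESCs) with and without Zeb2. A gene was a member when its symbol was that of a collagen chain (Col), laminin chain (Lama, Lamb, Lamc), integrin chain (Itga, Itgb), nidogen (Nid1, Nid2), Adamts protease, matrix metalloproteinase (Mmp) or Timp inhibitor, or was Fn1, Sparc, Hspg2, Agrn or Vtn. The rule used names and no measured values, and found 55 of the 10965 genes in the table. Of the protein-coding gene names in the GENCODE M21 annotation, 144 fit the rule, and the same 55 of them had a row. Vtn was not among the rows. The table was filtered by the authors to genes of at least 5 TPM in at least 3 libraries, where TPM is a transcript level scaled for transcript length and for the total of each library. Of the 55 genes, 24 had 5 TPM or more in every library, while 10 reached that level only in Ctrl d6 (Col1a1, Col1a2, Col4a5, Col6a2, Col11a1, Col11a2, Col12a1, Itgb8, Adamts1 and Timp3) and 2 only in KO d6 (Col9a3 and Mmp9), so for these 12 a difference between groups was a condition of being listed. Counts over the 55 genes therefore describe this table and do not stand for all matrix genes.

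Zeb2 is a transcription factor with zinc fingers that binds short CACCT-type sequences and can act as a repressor. Ctrl cells were Zeb2 fl/fl ESCs, in which the gene is flanked by recombination sites but active, and KO cells had lost Zeb2, and the labels give the CD1 strain for both. At d0 the cells were kept with PD0325901 (0.4 µM), CHIR99021 (1 µM) and LIF (1000 U/ml), as ground-state ESCs, by the labels, whose doses of PD0325901 and CHIR99021 are lower than those in the study's methods. At d4 they had been withdrawn from these and grown as embryoid bodies, floating aggregates of cells, with 15% serum, a stage that the labels call multipotent progenitor. At d6 they had been moved into serum-free medium with 500 nM retinoic acid from d4 on, a stage called neural progenitor. Each of the 6 groups had 3 libraries, which the study describes as independent experiments. The study used several Ctrl and KO lines, KO lines made with Cre in floxed cells among them, and which of the study's lines were sequenced is not given in the sources used here, so a difference between the genotypes may in part be one between lines.

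Laminins, collagen IV, nidogens and the heparan sulfate proteoglycans perlecan and agrin build the basement membrane, the thin sheet on which epithelia sit. Laminins are trimers of an alpha, a beta and a gamma chain that polymerise at the cell surface, collagen IV trimers form a second network, and nidogen and perlecan link the networks. Integrins are receptors of an alpha and a beta chain that hold the cell to this sheet and to fibronectin. In the early embryo a basement membrane separates primitive endoderm from epiblast, and the epiblast and later the neural epithelium rest on laminin. Matrix metalloproteinases and Adamts enzymes cut matrix proteins, and Timps inhibit metalloproteinases.

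Zeb2 itself read as the labels say. It was at 7.81, 7.53 and 7.65 TPM in Ctrl d6 and at 0.717, 0.594 and 0.733 TPM in KO d6, and at 1.36 ± 0.121 against 0.164 ± 0.0388 TPM at d4 and 0.129 ± 0.00754 against 0.0216 ± 0.00526 TPM at d0 (mean ± SD, n = 3 each). The libraries held 9622622 to 15617675 reads on the listed genes, and a member had between 0 and 37235 reads in a library, with a median of 316. Of the marker lists, the 11 naive pluripotency markers summed to 5775 to 5990 TPM in Ctrl d0 and 464 to 552 TPM in Ctrl d6, and were 1206 to 1429 TPM in KO d6. All 8 measured neural progenitor markers were lower in KO at d6, against 34.3% of all genes, with Irx3 at 98 ± 14.9 TPM in Ctrl and 3.95 ± 0.31 TPM in KO. How many of the 8 reached the 5 TPM of the filter only in Ctrl d6 was not counted, and any that did had to be lower in KO d6. Their summed level was 356 to 408 TPM in Ctrl d6 and 66.2 to 79.2 TPM in KO d6. The KO d6 libraries thus carry the neural progenitor label without the Ctrl level of these markers. The median difference of all genes was not 0 and was -0.07, -0.16 and -0.14 at d0, d4 and d6 for KO minus Ctrl, and 0.26 for Ctrl from d0 to d4, on the log2 scale. Changes of members below are to be read against these medians. RNA was measured in bulk, so fewer cells of a type and less RNA per cell cannot be told apart.

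The promoters of Col4a1 and Col4a2 are shown first because these genes carried some of the largest differences and lie head to head on chromosome 8. Both windows, from 250 bases before to 50 after the annotated start, come from RefSeq on build GRCm38.p6, and the 78 bases shared by both (chr8:11312777-11312854) are in capitals. Col4a1 is read from the minus strand (chr8:11312777-11313076) and Col4a2 from the plus strand (chr8:11312555-11312854).
Col4a1: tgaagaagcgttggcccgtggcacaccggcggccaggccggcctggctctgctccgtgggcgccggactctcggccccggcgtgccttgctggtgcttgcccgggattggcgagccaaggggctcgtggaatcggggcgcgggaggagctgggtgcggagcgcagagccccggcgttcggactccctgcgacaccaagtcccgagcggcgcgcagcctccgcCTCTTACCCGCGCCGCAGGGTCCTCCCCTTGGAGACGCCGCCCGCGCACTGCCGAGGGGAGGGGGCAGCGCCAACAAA
Col4a2: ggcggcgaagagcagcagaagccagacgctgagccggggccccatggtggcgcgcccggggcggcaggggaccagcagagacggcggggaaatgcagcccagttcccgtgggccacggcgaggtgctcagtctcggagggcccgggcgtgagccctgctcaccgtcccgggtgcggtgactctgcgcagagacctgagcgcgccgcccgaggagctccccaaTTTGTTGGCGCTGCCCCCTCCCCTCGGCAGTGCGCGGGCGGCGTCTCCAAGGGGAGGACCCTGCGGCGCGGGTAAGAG
The capitals at the end of each window are the same bases read from opposite strands, so the 2 genes start within 78 bases that belong to both windows.

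Collagen IV chains rose steeply in differentiating Ctrl cells and far less in KO cells. Col4a1 encodes the alpha 1 chain of the main collagen IV trimer and lies at chr8:11198423-11312826 on GRCm38. It was at 10.9, 10.6 and 11.4 TPM in Ctrl d0, at 123, 154 and 152 TPM in Ctrl d4, and at 393, 520 and 637 TPM in Ctrl d6. In KO it was at 3.88, 3.13 and 4.01 TPM at d0, at 41.9, 41.6 and 39 TPM at d4, and at 49.2, 68.3 and 54.7 TPM at d6. Every KO library lay below every Ctrl library of its day, and the KO d6 libraries lay below Ctrl d4. The log2 differences (KO minus Ctrl, with log2(TPM + 1) as the scale of all tests) were -1.36 ± 0.15, -1.78 ± 0.15 and -3.13 ± 0.15 (SE) at d0, d4 and d6. The adjusted p over all genes, from limma, was 4.50e-11 at d6.

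Col4a2, the alpha 2 chain of the same trimer, moved with it. It was at 4.94, 4.08 and 6.6 TPM in Ctrl d0 and at 244, 310 and 394 TPM in Ctrl d6, against 1.65, 1.74 and 1.9 TPM in KO d0 and 24.2, 40 and 32.4 TPM in KO d6. Its mean was 2.95 times lower in KO at d0, 4.55 times at d4 and 9.82 times at d6. The ratio of Col4a1 to Col4a2 was 1.63 ± 0.0389 in Ctrl d6 and 1.81 ± 0.195 in KO d6, and it ranged from 1.61 to 2.74 over all libraries. Col4a5, a chain of a rarer trimer, was at 10.4 ± 0.374 TPM in Ctrl d6 and 1.01 ± 0.234 TPM in KO d6. Both Col4a1 and Col4a2 lie on chromosome 8, where the median of 668 genes exceeded that of Ctrl by 0.33 at d0 in KO, so their lower d0 level ran against their chromosome. With a pseudocount of 5 (adjusted p = 0.0102, limma) or with voom on reads (0.0224) the d0 call of Col4a2 was lost, while its d4 and d6 calls held under every setting tried.

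**Figure D1:**
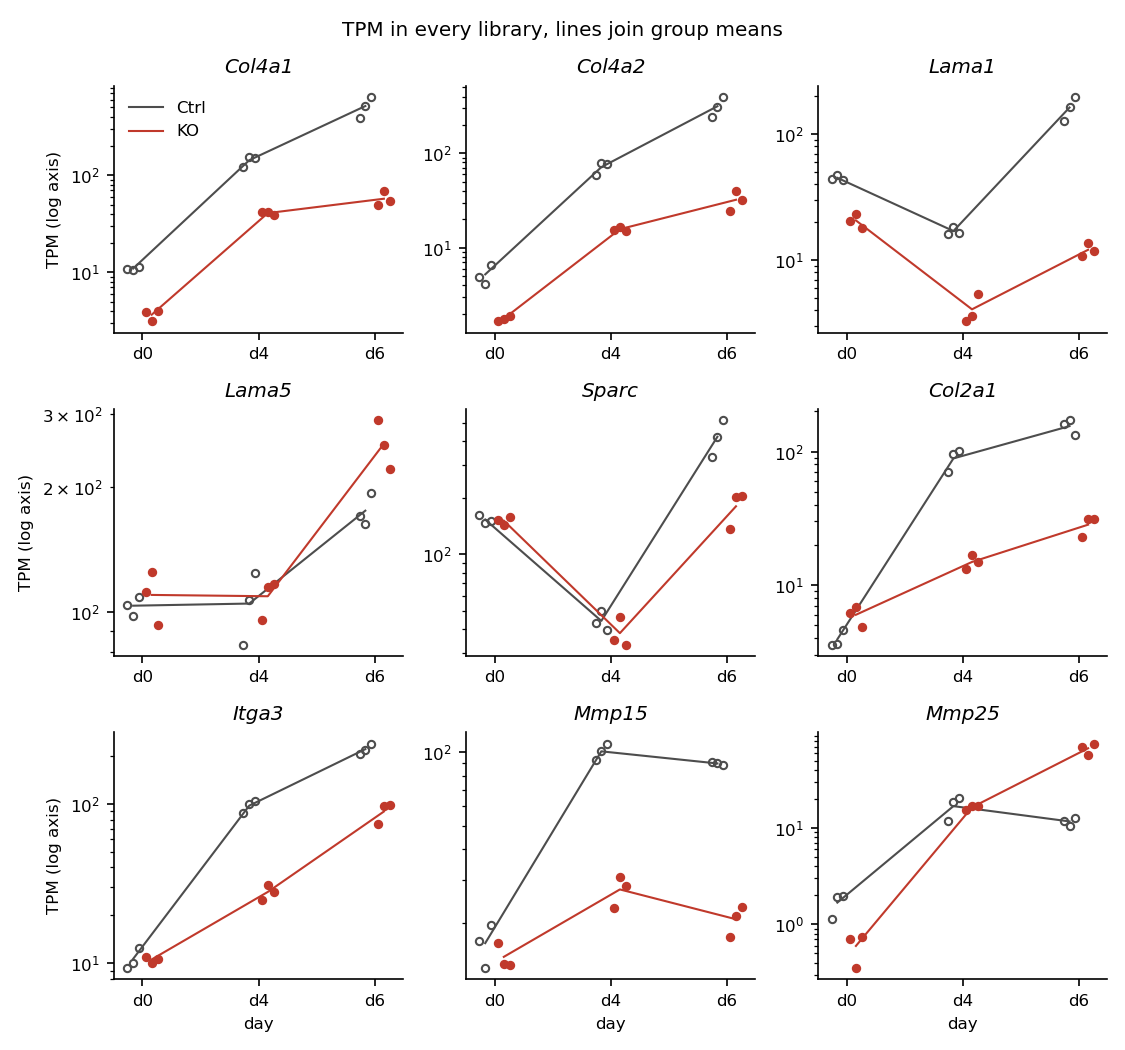
TPM on a log axis of 9 of the genes in every library at d0, d4 and d6, with Ctrl as open grey and KO as filled red circles and lines through the group means (n = 3). Col4a1, Col4a2 and Lama1 separated the genotypes on every day, whereas Mmp25 overlapped at d4 and was higher in KO at d6.

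Laminin chains did not move as 1 block. At d6 Lama1, Lamb1, Lamb2 and Lamc1 were lower in KO, and Lama3 and Lama5 higher. Lama1 encodes the alpha chain of the first laminin of the embryo and lies at chr17:67697259-67822647. It was at 128, 163 and 196 TPM in Ctrl d6 and at 10.8, 13.6 and 11.8 TPM in KO d6, a difference of -3.63 ± 0.16 (adjusted p = 1.59e-11, limma) and the lowest value among the 55 genes. At d0 it was already at 20.6, 23.3 and 18 TPM in KO against 44.2, 47.2 and 43.4 TPM in Ctrl. It fell from d0 to d4 in both genotypes, by 1.35 and 2.11 on the log2 scale, and then rose by 3.16 ± 0.16 in Ctrl and 1.39 ± 0.16 in KO. The Ctrl and KO libraries did not overlap on any day.

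Lama5, the alpha chain of most epithelial basement membranes, was the higher in KO. It was at 170, 163 and 193 TPM in Ctrl d6 and at 289, 252 and 221 TPM in KO d6, a difference of 0.53 ± 0.14, and the groups overlapped at d0 and d4. The d6 call was lost without Ctrl d6 replicate 1 or 2 or KO d6 replicate 1 or 2 (adjusted p = 0.0102 to 0.0208, limma). Lama3, an alpha chain of laminins of anchoring epithelia, was at 5.17 ± 0.701 TPM in Ctrl d6 and at 20.4 ± 3.72 TPM in KO d6, 3.94 times higher. Lama1 accordingly made up 42.2%, 49.3% and 49.6% of the summed TPM of the 3 measured alpha chains in the Ctrl d6 libraries and 3.33%, 4.8% and 4.7% in KO d6. At d0 its share was 27.9% ± 1.89 in Ctrl and 14.3% ± 0.154 in KO. The shares are of transcripts and say nothing of the trimers formed.

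**Figure D2:**
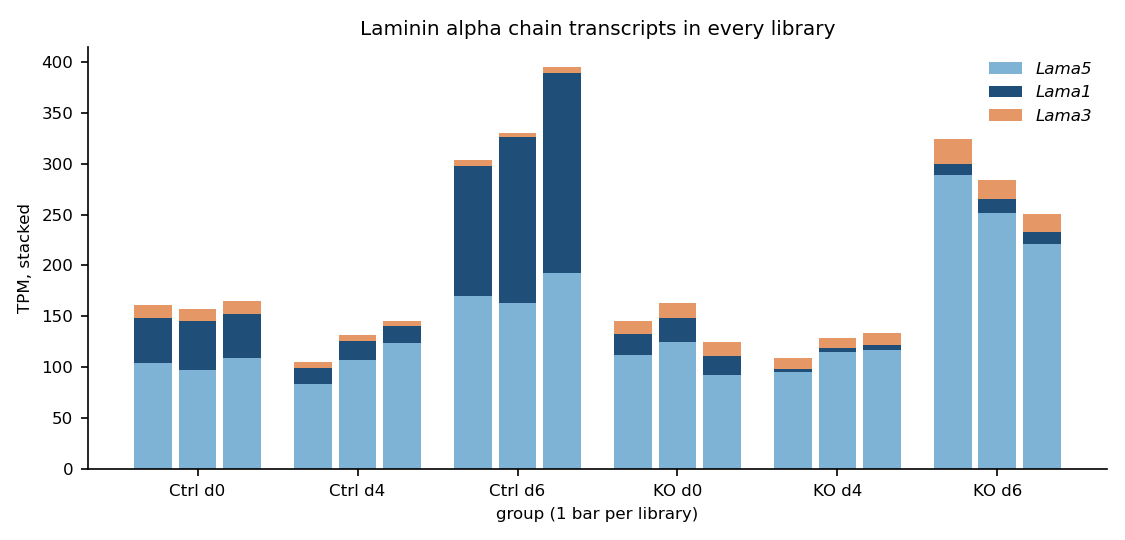
Stacked TPM of Lama5, Lama1 and Lama3 on a linear axis, 1 bar per library, by genotype and day. The dark Lama1 segment took 42.2% to 49.6% of the bar in Ctrl d6 and 3.33% to 4.8% in KO d6.

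Among the partner chains, Lamb1, the beta chain that pairs with Lama1 and Lama5, rose in both genotypes from d0 to d4 and from d4 to d6. On each day KO had less of it, by -1.27 ± 0.11, -0.80 ± 0.11 and -0.69 ± 0.11, and its d0 value stood against a median of 0.36 higher in KO for the 440 genes of chromosome 12, where it lies. Lamc1, the common gamma chain, was high throughout, at 287 ± 12.6 TPM in Ctrl d0 and 231 ± 30.1 TPM in Ctrl d6, and was at 146 ± 3.19 TPM in KO d6. Lamb2, the other common beta chain, was at 52.8 ± 5.09 TPM in KO d0 against 34.3 ± 2.78 TPM in Ctrl, and then at 21 ± 2.79 against 53.8 ± 4.17 TPM at d6. Its groups lay apart in opposite directions on these days.

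The other basement membrane genes differed less. Nid2, a nidogen and the most abundant member over all libraries at 410 TPM, was at 289, 321 and 323 TPM in Ctrl d6 and at 382, 370 and 369 TPM in KO d6, whereas at d4 the Ctrl libraries were the higher (479, 490 and 440 against 355, 334 and 378 TPM). The difference at d6 was 0.26 ± 0.06 and was not called after quantile normalization (0.18, adjusted p = 0.0213, limma). Nid1, the other nidogen, fell over both intervals in both genotypes, from 229 ± 13.3 to 63.5 ± 9.56 TPM in Ctrl and from 242 ± 4.15 to 38.5 ± 3.28 TPM in KO, and was called lower in KO at d6 (-0.70 ± 0.09). Hspg2, which encodes perlecan, was at 88.2 ± 18.1 TPM in Ctrl d0 and 43.4 ± 7.02 TPM in KO d0, and its libraries overlapped at d6. Agrn, which encodes agrin, rose from 93.1 ± 8.92 to 216 ± 17.6 TPM from d0 to d4 in Ctrl and was at 111 ± 4.07 and 105 ± 8.8 TPM in KO. Col18a1, a collagen of basement membranes that carries heparan sulfate, rose from d0 to d4 in both genotypes and at d6 was at 364 ± 20.8 TPM in Ctrl and 327 ± 19.2 TPM in KO, a difference that was not called (adjusted p = 0.07, limma).

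Sparc encodes a secreted protein that binds collagen. It was at 162, 146 and 151 TPM in Ctrl d0 and at 153, 143 and 157 TPM in KO d0, then fell to 44.3 ± 5.42 and 38.1 ± 7.1 TPM at d4. At d6 it had risen to 328, 422 and 515 TPM in Ctrl and to 136, 201 and 203 TPM in KO. The fall to d4 differed between KO and Ctrl by -0.20 ± 0.24, and the rise to d6 by -1.0 ± 0.24 (KO minus Ctrl, log2 scale).

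Endoderm markers moved in the same direction at d6. Of 15 measured markers of primitive, parietal and visceral endoderm, cells that secrete much collagen IV, laminin and Sparc, 13 were lower in KO at d6 against 34.3% of all genes, Amn and Lrpap1 being the others, and their median difference was -1.58. How many of the 15 markers reached the 5 TPM of the filter only in Ctrl d6 was not counted. Any that did had to be lower in KO d6, so the count is no support by itself. The summed level of the 15 markers was 362 to 544 TPM in Ctrl d6 and 167 to 220 TPM in KO d6. It was 108 to 110 TPM in Ctrl d4 and 98.7 to 117 TPM in KO d4. Lrpap1, at 97.9 TPM in Ctrl d6 and 99.1 TPM in KO d6, took a large part of these sums. Of the 15 markers, 3 were under 1 TPM in every Ctrl d4 library and 5 in every KO d4 library. The d4 sums therefore say little about the other markers. The collagen IV chains summed to 184 to 235 TPM in Ctrl d4 and 55 to 58.8 TPM in KO d4. Gata6, an endoderm regulator, was at 19.2 ± 0.917 TPM in Ctrl d6 and 3.16 ± 0.789 TPM in KO d6. At d0, 10 of the 15 markers were under 1 TPM in every library of either genotype. The part of these cells in the d4 and d6 differences was not tested.

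**Figure D3:**
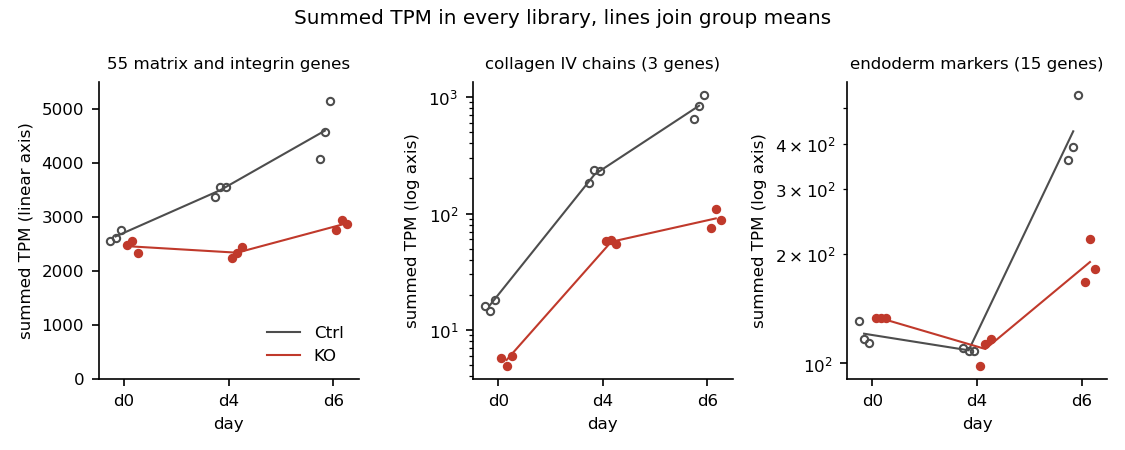
Summed TPM in every library at d0, d4 and d6 of all 55 genes (linear axis), of the 3 collagen IV chains (log axis) and of 15 endoderm markers (log axis), with Ctrl as open grey and KO as filled red circles and lines through group means (n = 3). Ctrl and KO overlapped for the endoderm markers at d4 but not at d6. The collagen IV chains lay apart on every day.

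Fibrillar collagens, which form the fibres of connective tissue and cartilage, were lower in KO in all 6 measured genes at d4 and again at d6, with median differences of -0.93 and -1.82, against 32.7% and 34.3% of all genes called lower. Of the 6, Col1a1, Col1a2, Col11a1 and Col11a2 reached 5 TPM only in Ctrl d6, so their lower level in KO d6 was a condition of being listed and the d6 count is no support. At d4 the calls of Col1a1, Col1a2 and Col5a1 were lost with quantile normalization (adjusted p = 0.233, 0.0401 and 0.0164, limma). Col2a1, the main collagen of cartilage that is also made in early epithelia, was the most abundant. It was at 70.2, 95.3 and 101 TPM in Ctrl d4 and at 13.1, 16.7 and 14.9 TPM in KO d4. At d6 it was at 160, 171 and 134 TPM in Ctrl and 22.9, 31.1 and 31 TPM in KO. At d0 the order was the other way, at 3.93 ± 0.559 TPM in Ctrl and 6 ± 1.01 TPM in KO, and was not called (adjusted p = 0.0209, limma). The gap thus opened between d0 and d4, when Col2a1 rose by 4.18 ± 0.16 in Ctrl and 1.19 ± 0.16 in KO, and from d4 to d6 the change differed by 0.07 ± 0.23.

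Col1a1 and Col1a2, the chains of the collagen of skin and bone, rose late and from low levels. Col1a1 was at 12.6, 13.9 and 20.3 TPM in Ctrl d6 and at 2.34, 4.94 and 3.37 TPM in KO d6, and Col1a2 was 4.82 times lower in KO. Col11a1, a minor chain of cartilage fibrils, was at 6.22, 8.07 and 6.89 TPM in Ctrl d6 and at 0.76, 0.869 and 1.1 TPM in KO d6. Col5a1, a chain that starts collagen fibrils, was called at d0, at 12.3 ± 1.21 TPM in Ctrl and 4.44 ± 0.971 TPM in KO, and KO stayed below Ctrl at d4 and d6. Of 10 measured markers of fibroblasts and mesenchyme, cells that make such collagens, 4 were higher and 5 lower in KO at d6, against 17.9% and 34.3% of all genes. How many of the 10 reached 5 TPM only in Ctrl d6 or only in KO d6 was not counted, and any that did had to differ at d6. Tagln, a smooth muscle marker, was at 162 ± 47.6 TPM in Ctrl and 615 ± 223 TPM in KO, and Prrx2, a mesenchymal regulator, at 26.7 ± 1.17 and 5.92 ± 2.67 TPM. Their part in the fibrillar collagen values was not tested.

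Of the 7 collagens outside these classes, 5 were lower in KO at d4 and 5 at d6, against 32.7% and 34.3% of all genes. Col6a2 and Col12a1 reached 5 TPM only in Ctrl d6 and Col9a3 only in KO d6. The d6 count was therefore in part a condition of being listed. Col12a1, which binds to the surface of collagen fibrils, was at 9.11, 8.65 and 11.9 TPM in Ctrl d6 and at 0.125, 0.0994 and 0.193 TPM in KO d6. The KO values rested on 6 to 12 reads against 494 to 826 in Ctrl, a mean 71 times lower. Up to d4 the gene was below 1 TPM in every library. Col6a1 and Col6a2, chains of the beaded filaments of collagen VI, rose over both intervals in both genotypes and were 2.83 and 2.57 times lower in KO at d6. The rise of Col6a1 in KO from d0 to d4 was not called with a pseudocount of 5, with quantile normalization or with only the 2 groups in the fit (adjusted p = 0.0964, 0.195 and 0.018, limma), nor in 8 of the 18 fits without a single library (adjusted p up to 0.043). The rise of Col6a2 in KO from d4 to d6 was not called with only the 2 groups in the fit (adjusted p = 0.0112, limma). Col9a2, a chain that coats cartilage fibrils, peaked in Ctrl d4 at 64.6, 62.6 and 57.9 TPM while KO d4 was at 19, 14.9 and 19.7 TPM, and at d6 the groups overlapped. Col9a3, its partner chain, was at 2.4, 3.85 and 4.71 TPM in KO d4 against 1.49, 2.26 and 1.84 TPM in Ctrl d4 and was not called (adjusted p = 0.0249, limma).

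**Figure D4:**
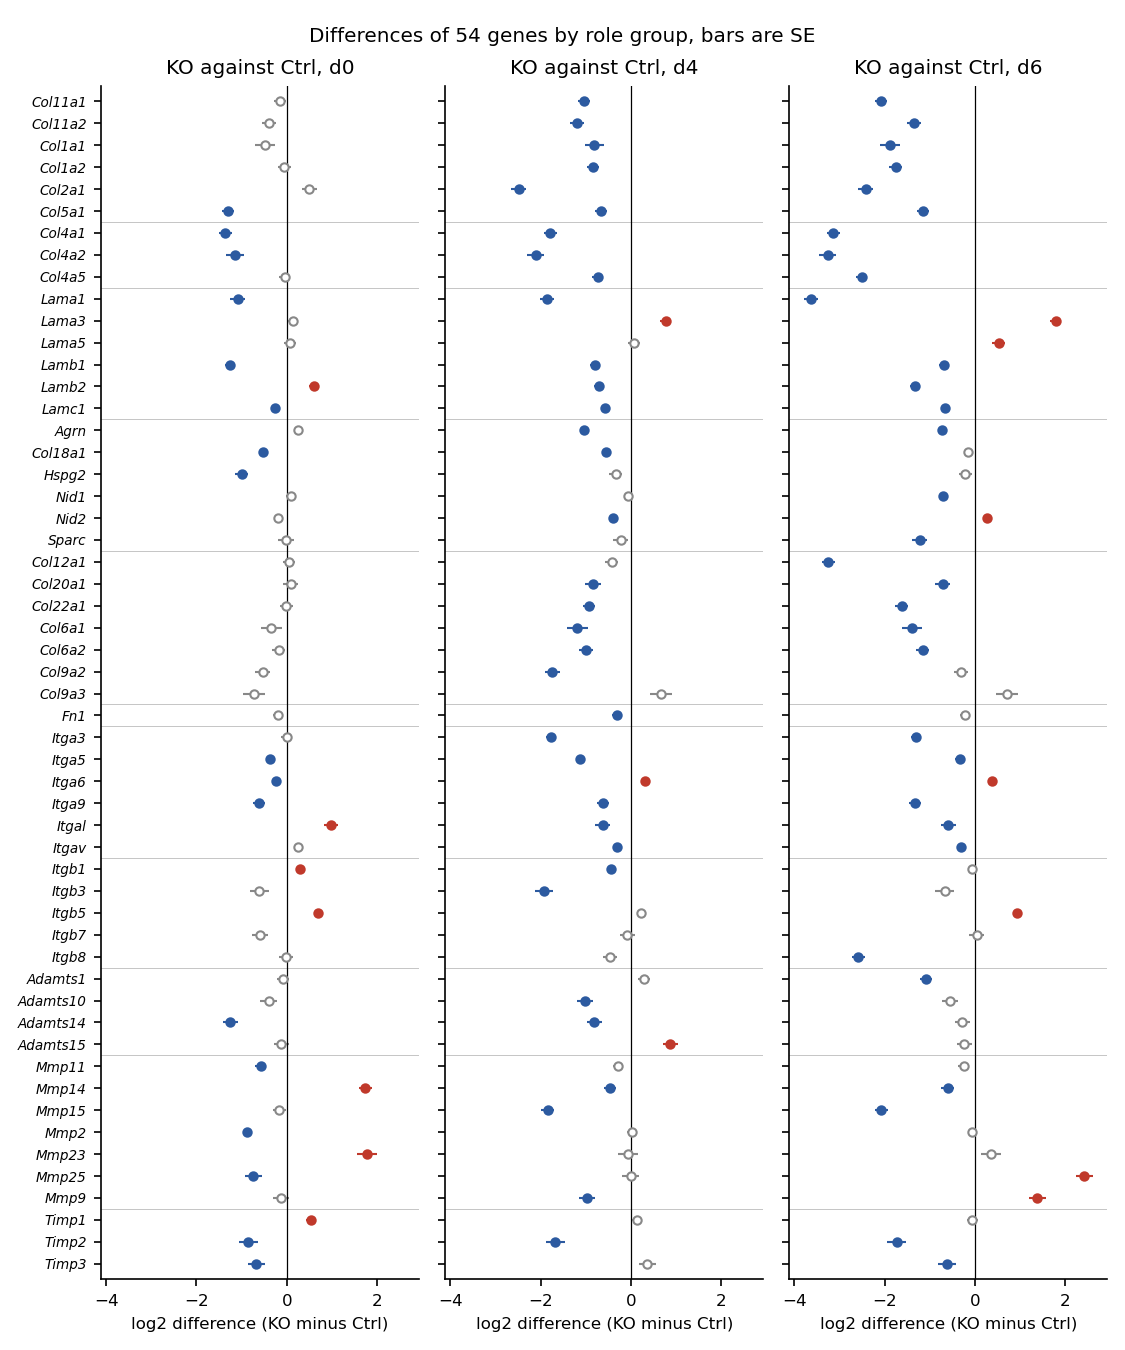
Log2 differences (KO minus Ctrl, on log2(TPM + 1), with SE bars) of 54 of the 55 genes at d0, d4 and d6, ordered by role with lines between role groups. Filled blue points were called lower, filled red points higher and open grey points not called at an adjusted p below 0.01, and 17 genes were called lower at d0, 35 at d4 and 32 at d6.

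Over all 55 genes, a gene was called at an adjusted p below 0.01 from limma over all 10965 genes. At d0, 8 members were called higher and 17 lower in KO, against 10.6% and 16.4% of all genes, which is 14.5% and 30.9% of the members. Without the library of Ctrl d0 replicate 3, the members called lower were 11. At d4, 4 members were higher and 35 lower, against 12.7% and 32.7% of all genes. At d6, 8 were higher and 32 lower, against 17.9% and 34.3% of all genes. The share of members called higher was 7.27% at d4 and 14.5% at d6, below the background on both days, and the share called lower was 63.6% and 58.2%, above it. Of the members, 10 reached 5 TPM only in Ctrl d6 and 2 only in KO d6. The d6 shares were therefore in part a condition of being listed. The median difference of the members was -0.18, -0.62 and -0.65 on the 3 days, beside -0.07, -0.16 and -0.14 for all genes. After quantile normalization 8 members were higher and 25 lower at d4, which moved the higher share of the calls from 10.3% to 24.2%. The summed TPM of the 55 genes was 4066 to 5134 in Ctrl d6 and 2748 to 2945 in KO d6.

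Integrin alpha chains were lower in KO at d6 in 5 of 6 genes, against 34.3% of all genes. Of these, Itga5, Itgal and Itgav lost the call with median-ratio rescaling, so the count depends on the scaling. Itga3, whose receptor binds laminins that contain Lama5 or Lama3, was at 9.35, 10.1 and 12.5 TPM in Ctrl d0 and 10.9, 10.1 and 10.7 TPM in KO d0, where the libraries overlapped. At d4 it was at 88.4, 100 and 105 TPM in Ctrl and 24.8, 31.2 and 28.2 TPM in KO, and at d6 at 206, 219 and 240 against 74.6, 96.9 and 98.1 TPM. The d4 libraries were the farther apart, at -1.77 ± 0.12 against -1.30 ± 0.12 at d6. Itga5, the fibronectin receptor chain, rose by 0.94 ± 0.09 from d0 to d4 in Ctrl, while in KO it rose by 0.78 ± 0.09 from d4 to d6 instead. Itga6, a laminin receptor chain present on ESCs, was the exception and was at 52.3, 50.6 and 58.1 TPM in Ctrl d6 and 68.9, 66.5 and 74.4 TPM in KO d6, after being lower in KO at d0 by -0.25 ± 0.07. The d0 call was lost with median-ratio rescaling (adjusted p = 0.0201, limma), quantile normalization, chromosome medians removed or only the 2 groups in the fit. It was also lost with eBayes without trend, a replicate block or voom on reads, and in 9 of the 18 fits without a single library.

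Itgav, a chain that pairs with several beta chains, was lower in KO by -0.30 ± 0.09 at d4 and at d6, and both calls were lost with median-ratio rescaling (adjusted p = 0.221 and 0.175, limma). Itga9, a receptor chain for tenascin and other ligands, was lower in KO on each day and at d6 was 2.78 times lower, but its calls at d0 and d4 were lost with quantile normalization (adjusted p = 0.0157 and 0.0805, limma). Itgal, a chain of leukocyte integrins, was low in these cells and changed order. It was at 4.13, 4.49 and 4.66 TPM in Ctrl d0 and 9.56, 10.9 and 8.69 TPM in KO d0, and at d4 at 7.49, 6.34 and 6.67 against 3.64, 3.82 and 4.82 TPM. From d0 to d4 it rose by 0.53 ± 0.16 in Ctrl and fell by 1.07 in KO, but the rise in Ctrl was not called with median-ratio rescaling (0.27, adjusted p = 0.119) and was -0.22 after quantile normalization (limma).

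Among the 5 beta chains, Itgb1, the partner of most alpha chains above, was by far the most abundant. It rose from 67.1 ± 1.93 to 253 ± 10.8 TPM from d0 to d4 in Ctrl and from 83.1 ± 4.42 to 186 ± 12 TPM in KO, and its d6 libraries overlapped. Itgb1 lies on chromosome 8, and its higher d0 level in KO (0.30 ± 0.06) was close to the median of 0.33 of that chromosome and became -0.09 once chromosome medians were removed. Itgb5, a vitronectin receptor chain, was at 33, 35.5 and 37 TPM in Ctrl d6 and at 63.7, 70.8 and 70.3 TPM in KO d6, and from d4 to d6 it fell by 0.59 in Ctrl and changed by 0.13 ± 0.08 in KO, which was not called. Itgb8, a chain that binds latent TGF-beta, reached 8.28, 7.53 and 7.17 TPM in Ctrl d6 and 0.463, 0.601 and 0.293 TPM in KO d6. Itgb3, a platelet and vitronectin receptor chain, was 6.46 times lower in KO at d4 and at d6 was not called (adjusted p = 0.0106, limma).

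Fibronectin (Fn1) fell in both genotypes, from 375, 432 and 423 TPM in Ctrl d0 to 120, 132 and 137 TPM in Ctrl d6 and from 354, 393 and 321 to 129, 104 and 101 TPM in KO, with overlap at d0 and d6. The change from d0 to d4 differed between the genotypes by -0.11 ± 0.13 and that from d4 to d6 by 0.09 ± 0.13. A call at d4 (-0.32 ± 0.10, adjusted p = 0.00987, limma) was lost with median-ratio rescaling (-0.14, adjusted p = 0.194). That call was also lost with a pseudocount of 0.1, eBayes without trend, a replicate block or voom on reads. So it was in 13 of the 18 fits without a single library.

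The metalloproteinases showed both directions. All 7 measured rose from d0 to d4 in Ctrl and 6 of them in KO, against 45.1% and 35.8% of all genes. The rise of Mmp11 in Ctrl was not called with median-ratio rescaling (0.20, adjusted p = 0.111, limma). The rise of Mmp9 in KO was not called with that rescaling, with a pseudocount of 5, with quantile normalization, with chromosome medians removed or with only the 2 groups in the fit (adjusted p = 0.0131, 0.0881, 0.852, 0.0113 and 0.0157, limma), nor in 9 of the 18 fits without a single library (adjusted p up to 0.0402). Mmp25, which is anchored to the membrane by a lipid and is known from leukocytes, had the highest difference among the 55 genes at d6. It was at 11.9, 10.4 and 12.8 TPM in Ctrl d6 and at 69, 57.6 and 75.1 TPM in KO d6, a difference of 2.42 ± 0.18 (adjusted p = 1.12e-08, limma). At d4 its libraries overlapped, and at d0 it was lower in KO on 4 to 7 reads, a call that voom on the reads did not keep (adjusted p = 0.0583, limma). Mmp9, a gelatinase, was at 2.32, 2.84 and 3.66 TPM in Ctrl d4 against 0.586, 1.26 and 1.22 TPM in KO d4, and at d6 the order turned, at 4.08, 2.66 and 3.25 against 8.58, 10.6 and 11.6 TPM.

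Mmp15, a membrane-bound metalloproteinase, was at 90.5, 90 and 88.4 TPM in Ctrl d6 and 17.5, 21.4 and 23.2 TPM in KO d6, with overlap at d0. Mmp14, the membrane-bound activator of Mmp2, was at 4.2, 3.6 and 3.16 TPM in Ctrl d0 and at 15.1, 18 and 11.1 TPM in KO d0, 4.04 times higher. It was then lower in KO at d4 and d6, by -0.46 ± 0.13 and -0.61 ± 0.13, and the d4 call was lost with median-ratio rescaling (adjusted p = 0.0784, limma). Mmp23 had the highest difference at d0, at 0.912, 1.47 and 0.432 TPM in Ctrl and 5.2, 5.91 and 5.47 TPM in KO, and its libraries overlapped on the later days. Mmp2, a gelatinase, was lower in KO at d0 (0.503 of the Ctrl mean), against the higher median of its chromosome 8, and at d4 was at 91.5, 97.5 and 97.7 TPM in Ctrl and 89.8, 105 and 95.5 TPM in KO.

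Of the inhibitors, Timp1 fell over both intervals in both genotypes, from 111 ± 4.84 to 28.8 ± 5.61 TPM in Ctrl and from 161 ± 11.5 to 27.4 ± 2.33 TPM in KO. Timp2 was at 42.7, 47.9 and 49.3 TPM in Ctrl d6 and at 8.71, 16.2 and 16.7 TPM in KO d6, and was lower in KO on all 3 days. Its d0 call was lost with a pseudocount of 5, with quantile normalization, with only the 2 groups in the fit and with voom on reads (adjusted p = 0.0408, 0.0313, 0.017 and 0.0285, limma), and without Ctrl d0 replicate 3 or KO d0 replicate 1 or 2 (adjusted p = 0.0286, 0.0191 and 0.0217, limma). Timp3, which stays bound to the matrix, was at 6.15 ± 1.47 TPM in Ctrl d6 and 3.62 ± 0.549 TPM in KO d6, a call that 12 of the 18 fits without a single library did not keep. Of the 4 Adamts proteases, Adamts1, which cleaves proteoglycans, was at 9.94, 8.47 and 10.5 TPM in Ctrl d6 and 3.83, 4.15 and 4.12 TPM in KO d6. Adamts15 was 2.2 times higher in KO at d4 and overlapped at d6. Adamts14, a processor of procollagen, was lower in KO at d0 (9.38 ± 2.02 TPM in Ctrl and 3.34 ± 0.734 TPM in KO) and at d4.

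Over time, more members rose than fell in each interval and genotype, while the summed TPM of the 55 genes was 2450 ± 109 in KO d0 and 2336 ± 100 in KO d4. From d0 to d4 in Ctrl, 34 members rose and 7 fell, against 45.1% and 22.3% of all genes, and in KO 30 rose and 11 fell, against 35.8% and 20.9%. From d4 to d6 in Ctrl, 24 rose and 12 fell, against 22.6% and 21.5% of all genes, and in KO 24 rose and 7 fell, against 21.5% and 19.9%. Of the members, 10 reached 5 TPM only in Ctrl d6, Col1a1 and Col12a1 among them, and 2 only in KO d6, Mmp9 among them. The rises from d4 to d6 were therefore in part a condition of being listed. The 2 intervals of a genotype share its d4 libraries. With quantile normalization the members that rose from d0 to d4 were 27 in Ctrl and 22 in KO, with 12 and 15 that fell. The largest rises in Ctrl from d0 to d4 were in Col2a1, Col4a1, Col4a2 and Mmp14, and from d4 to d6 in Sparc, Lama1, Col12a1 and Col1a1. In KO the first interval was led by Mmp2 (3.87 ± 0.10), Mmp25 (3.45 ± 0.18), Col4a1 (3.17 ± 0.15) and Col4a2 (2.59 ± 0.19), and the second by Mmp9, Sparc, Mmp25 and Col6a1. The falls were led by Sparc, Nid1, Lama1 and Timp1 from d0 to d4 in both genotypes.

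The course over d0, d4 and d6 differed between KO and Ctrl for 45 of the 55 members by limma's F test on how far the genotypes diverged at d4 and d6 from their d0 gap, against 48.7% of all genes. The members without a called difference included Col5a1, Lama5, Col6a1, Fn1, Itgb7, Adamts10, Mmp11, Timp1 and Timp2. For Col5a1 the gap between the genotypes was called from d0 on. By step, 29 members changed differently from d0 to d4 and 23 from d4 to d6, against 36.1% and 13.4% of all genes. Of the members, 10 reached 5 TPM only in Ctrl d6 and 2 only in KO d6, which favours an unequal change up to d6. The counts by the F test and for d4 to d6 therefore follow in part from the filter. With voom on the recovered reads the course differed for 34 members.

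Among genes outside the rule that act on collagen, 20 enzymes and chaperones of a list were measured, of which 2 were higher and 12 lower in KO at d6, against 17.9% and 34.3% of all genes, with a median difference of -0.50 against -0.14 over all genes. P3h2, which hydroxylates prolines in collagen IV, was at 13.1 ± 0.649 TPM in Ctrl d6 and 1.28 ± 0.0329 TPM in KO d6. Bmp1, which cuts procollagen ends, was at 47 ± 1.56 and 12.3 ± 2.04 TPM, and Loxl2, a crosslinking oxidase, at 11.5 ± 1.56 and 3.03 ± 0.494 TPM. The higher ones were Pcolce2 (1.95 ± 0.71 and 10.2 ± 2.22 TPM) and Pcolce (4.9 ± 0.641 and 8.54 ± 1.35 TPM), which enhance that cut. At d0, 3 of these 20 were higher and 1 lower, against 10.6% and 16.4% of all genes, and at d4 2 and 10, against 12.7% and 32.7%. How many of the 20 reached the 5 TPM of the filter only in Ctrl d6 was not counted. Any that did had to be lower in KO d6, so the d6 count is no support by itself.

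Of 17 measured genes of focal adhesions and matrix receptors, 3 were higher and 9 lower in KO at d6, against 17.9% and 34.3% of all genes, and 2 and 11 at d4, against 12.7% and 32.7%. How many of the 17 reached the 5 TPM of the filter only in Ctrl d6 was not counted, and any that did had to be lower in KO d6. Parva, which binds integrin-linked kinase, was at 46.6 ± 4.36 TPM in Ctrl d6 and 13.2 ± 4.05 TPM in KO d6, Dag1, which encodes the laminin receptor dystroglycan, at 101 ± 9.08 and 64.3 ± 2.7 TPM, and Tns1, a tensin, at 1.5 ± 0.152 and 0.419 ± 0.0929 TPM. Fermt1, a kindlin of epithelia that activates integrins, was at 2.47 ± 0.596 and 6.13 ± 0.614 TPM, Bcar1, a scaffold protein, at 193 ± 6.54 and 311 ± 49.5 TPM, and Actn4, an actin crosslinker, at 368 ± 27.7 and 431 ± 11.9 TPM.

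Promoter windows of RefSeq were at hand for 37 of the 55 members, in 42 windows. The letters CACCT, searched on both strands and including matches within CACCTG, occurred in 51.9% of all 32851 promoter windows and in 57.1% of those of members, and CACCTG in 20.2% and 23.8%. Of the 8 members higher in KO at d6, 3 had a window (Mmp25, Itgb5 and Lama5), and all 3 held CACCT. Of the windows of members lower in KO at d6, 16 of 28 held it. The 3 windows are shown because they are those of the members that were higher in KO, with CACCT or its reverse complement AGGTG in capitals.
Mmp25: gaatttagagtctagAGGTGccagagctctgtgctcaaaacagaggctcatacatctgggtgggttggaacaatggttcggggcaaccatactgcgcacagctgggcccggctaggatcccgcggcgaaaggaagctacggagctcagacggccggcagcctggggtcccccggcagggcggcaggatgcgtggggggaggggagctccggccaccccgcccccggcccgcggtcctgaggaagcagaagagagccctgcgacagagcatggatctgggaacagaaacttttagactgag
Itgb5: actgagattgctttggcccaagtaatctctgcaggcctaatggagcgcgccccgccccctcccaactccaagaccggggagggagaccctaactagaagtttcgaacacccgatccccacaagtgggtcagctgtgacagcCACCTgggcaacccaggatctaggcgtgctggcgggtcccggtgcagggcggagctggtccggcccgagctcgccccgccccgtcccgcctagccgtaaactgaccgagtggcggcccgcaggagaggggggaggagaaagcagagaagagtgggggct
Lama5: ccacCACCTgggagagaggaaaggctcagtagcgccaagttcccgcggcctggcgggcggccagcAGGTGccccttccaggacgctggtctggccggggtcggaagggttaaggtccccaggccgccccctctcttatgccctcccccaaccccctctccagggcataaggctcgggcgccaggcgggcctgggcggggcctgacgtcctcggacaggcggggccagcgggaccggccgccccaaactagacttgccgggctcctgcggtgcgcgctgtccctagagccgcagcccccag
Mmp25 is read from the minus strand (chr17:23645220-23645519), Itgb5 from the plus strand (chr16:33829415-33829714) and Lama5 from the minus strand (chr2:180225810-180226109). A match describes the letters of the window and is no evidence of binding.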

How the data were processed

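RNA-seq was made by the authors on 18 libraries, 3 for each of Ctrl and KO at d0, d4 and d6. Per the labels and the study's methods, single-end reads were aligned with TopHat2 2.0.13 to GRCm38 and counted with featureCounts 1.4.6, and genes were filtered on level and on variability. The authors deposited TPM values for 11046 rows, of which 10965 genes were kept, each once (81 repeats were left out). Columns of a variance and variability score were not used. Levels of low genes are compressed by the pseudocount, so folds of mean TPM are given beside log2 differences.

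Here log2(TPM + 1) was fitted with limma 3.58.1 in R 4.3.3 (6 group means, eBayes with trend), and the call threshold was 0.01 for the p adjusted across the whole table (Benjamini-Hochberg). TPM hold no counts, but whole reads were recovered from their steps (10965 genes, tolerance 1e-06, after taking off the 1 read that each gene carries in excess, so that 0 reads still give a TPM above 0) and used for depth and a voom fit. Reads carry no molecular identifiers. The steps were tested on simulated data. Positions come from GENCODE M21, promoters from RefSeq. Named were, by rule, the 8 largest called differences without overlap per day and direction, the 4 largest changes per interval and direction, the 3 highest genes per role group, a fixed set of core genes, and members called in opposite directions. Of other lists the 3 largest changes per direction at d6 were named, and further marker genes and, among members, Col1a2, Col6a2, Col9a3, Itga9, Adamts1 and Col11a2 were named outside the rule, with their values known. For 1 member, values are not reported here. Members and lists were chosen with earlier results of these data known. Figures used Python 3.11.15 with matplotlib 3.10.9.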

Additional observations from a re-analysis of the deposited data

Results flagged for a closer look

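The time courses of 45 members differed between KO and Ctrl by the moderated F test of limma, against 48.7% of all genes. The test asks whether the 2 genotypes change unequally since d0. For the 10 members that reached 5 TPM only in Ctrl d6 and the 2 only in KO d6, the filter favours such a difference. With voom on the recovered reads it called 34 members. Itgal was the member called in opposite directions in the 2 genotypes between the same days, and its change from d0 to d4 differed by -1.60 (KO minus Ctrl, log2 scale, adjusted p = 3.76e-05, limma), with Ctrl libraries at 4.13 to 4.66 TPM at d0 and 6.34 to 7.49 TPM at d4, and KO libraries at 8.69 to 10.9 and 3.64 to 4.82 TPM. In 8 members KO was called higher than Ctrl on 1 day and lower on another, namely Mmp14, Mmp9, Nid2, Mmp25, Itgb1, Itga6, Itgal and Lamb2. For Mmp14, Mmp9, Nid2, Mmp25, Itgb1, Itga6 and Itgal, at least 1 of these calls was lost in some settings.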

How the results depend on the processing

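Of 10626 refits of the members, 10174 kept their side of the threshold, 322 lost a call and 124 gained one, and 6 turned direction. A turn of direction was counted only where the main fit or the refit made a call. These 6 were Col11a2 in KO from d0 to d4 (-0.53), Itgal (-0.22) and Adamts15 (-0.17) for Ctrl from d0 to d4 after quantile normalization, and, with chromosome medians removed, Itgb1 at d0 (-0.089), Itgb1 in Ctrl from d4 to d6 (0.15) and Mmp2 in Ctrl from d4 to d6 (0.36). The causes were not tested. With a fold change above 1 on the log2 scale required as well, members called higher in KO were 2 at d0, 0 at d4 and 4 at d6 (4 at d4 by the adjusted p alone), members called lower in KO were 6 at d0 and 15 at d4, members that fell from d4 to d6 in Ctrl were 2, members that rose in KO were 17 and 9 over the 2 intervals, and those that fell were 6 and 3. With a mean TPM of at least 10 only 33 members were tested, and then 20 were lower in KO at d4 and 17 at d6, 17 and 11 rose over the 2 intervals in Ctrl and 15 and 13 in KO, and the course differed for 25. Quantile normalization left 11 lower at d0, 8 higher at d4, 12 that fell from d0 to d4 in Ctrl and 12 that fell from d4 to d6 in KO, and median-ratio rescaling gave 12 that fell from d0 to d4 in Ctrl.

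With 1 library left out, members called higher and lower were 6 to 8 and 11 to 17 at d0, 3 to 5 and 30 to 36 at d4, and 7 to 9 and 28 to 34 at d6, and the course differed for 39 to 43. The replicate block gave 8 higher and 15 lower at d0, 4 and 33 at d4, 9 and 31 at d6, and 43 members with a different course, and no count moved by over 1.5 times. Replicate numbers are shared across groups. Of 45 same-number pairs of groups, 29 had deviations that correlated above 0.1 (range -0.09 to 0.34). The median correlation was 0.15 for the same number and -0.05 for other numbers, and 15 of 18 libraries correlated best with their own number on average. Libraries of 1 number thus shared some deviation, which the main fit left out and the replicate block took in. Genes with few reads, such as Col12a1 and Itgb8 at d0, limit the folds at that day.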
